A study of Homo sapiens with 12 samples.

Results

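Granins and the enzymes that process neuropeptides were examined in CWR22Rv1, an established human prostate carcinoma line derived from a xenograft that relapsed after castration. The members were taken by gene symbol: CHGA, CHGB, SCG2, SCG3, SCG5, VGF, PCSK1, PCSK1N, PCSK2 and CPE. Of these 10 genes, 6 are among the 13951 genes analysed: the granins CHGB, SCG2, SCG3 and VGF, the convertase inhibitor PCSK1N and the carboxypeptidase CPE. CHGA, SCG5, PCSK1 and PCSK2 were not analysed here. RNA-seq libraries came from 4 groups of 3 replicates: Control cells with exogenous Cas9 and no guide RNA, LV-MEIS1 cells with lentiviral MEIS1, HOXB13ko cells targeted at HOXB13 with CRISPR/Cas9, and HOXB13ko-LV-MEIS1 cells, which are the HOXB13ko pool infected with LV-MEIS1. All were kept in puromycin and cultured for 48 hr before RNA was harvested. The HOXB13ko line is 1 pool recombined from single-cell clones that carry transposon-integrated Cas9, and the sources used here do not state whether LV-MEIS1 cells carry Cas9. The integrated Cas9 construct also carries puromycin resistance, so puromycin could not select for LV-MEIS1 infection in the HOXB13ko pool. Each genotype is 1 line or pool and nothing states that the replicates were derived separately, so p-values measure only the spread between these cultures, which may be technical. The transcription factors MEIS1 and HOXB13 both carry a homeodomain. With 4 groups, the change with LV-MEIS1 can be compared between cells targeted at HOXB13 and cells that are not.

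Granins are acidic proteins of dense-core secretory granules, where they help to condense cargo and are themselves cut into peptides. In the granule, prohormone convertases cleave precursors at pairs of basic residues, and CPE then trims these residues from the new ends. In the prostate these genes are best known from neuroendocrine cells and from carcinomas with neuroendocrine features, and CHGA and SYP are widely used markers of that state.

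Values are CPM (read counts scaled to library size) as deposited, and step-based estimates of depth ranged from 17200000 to 28700000 reads per library, so that 3 reads correspond to 0.105 to 0.175 CPM. Correlations of log2 values across genes were 0.9904 to 0.9952 between replicates, and the highest between groups was 0.9939. HOXB13 mRNA, the knockout target, was 184.6 to 215.4 CPM in Control and 150.1 to 151.7 CPM in LV-MEIS1, 306.9 to 347 CPM in the libraries labelled HOXB13ko and 326.4 to 375.3 CPM in those labelled HOXB13ko-LV-MEIS1. The mRNA therefore went against the knockout label, and every direction drawn from these libraries is given by label. Values summed over a gene do not tell edited from intact transcripts, and the study checked the loss of HOXB13 protein in these cells by western blot, which was not analysed here. All 11 luminal epithelial markers examined, the keratins KRT8 and KRT18 and HOXB13 itself among them, were listed above 0 in every library. Their summed level, which includes HOXB13, was 3500 to 3570 CPM in Control and 2090 to 2160 CPM in LV-MEIS1. It was 3800 to 3830 CPM in HOXB13ko and 3890 to 4020 CPM in HOXB13ko-LV-MEIS1. The markers of basal epithelial, endothelial and immune cells were not analysed here. Of 6 fibroblast and smooth muscle markers 2 were listed, summing to 22.4 to 24.9 CPM in Control and 34.7 to 40.7 CPM in LV-MEIS1, 31.3 to 31.6 CPM in HOXB13ko and 27.4 to 33.5 CPM in HOXB13ko-LV-MEIS1. In LV-MEIS1 they lay on opposite sides of Control, with COL1A1 at 225.9% and ACTA2 at 63.3% of the Control mean.

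The promoters of VGF, SCG3 and CPE are shown because the first 2 of these genes fell together in the results that follow and the third did not. Each sequence is the 250 bases before the RefSeq transcription start on the gene's own strand (RefSeq, GRCh38.p14); the RefSeq start of CPE lies inside the longer gene span annotated by GENCODE. Capitals mark matches on either strand to 4 motifs: the cAMP response element (CRE) TGACGTCA, its partial site TGACG, the MEIS core TGACAG and the HOXB13 site CCAATAAA.
VGF, chr7:101165570-101165819, minus strand: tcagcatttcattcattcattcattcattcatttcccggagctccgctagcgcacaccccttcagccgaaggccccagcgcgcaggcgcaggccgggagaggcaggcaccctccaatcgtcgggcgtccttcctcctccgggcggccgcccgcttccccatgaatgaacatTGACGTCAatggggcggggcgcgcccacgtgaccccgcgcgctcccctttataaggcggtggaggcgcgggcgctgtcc
SCG3, chr15:51681253-51681502, plus strand: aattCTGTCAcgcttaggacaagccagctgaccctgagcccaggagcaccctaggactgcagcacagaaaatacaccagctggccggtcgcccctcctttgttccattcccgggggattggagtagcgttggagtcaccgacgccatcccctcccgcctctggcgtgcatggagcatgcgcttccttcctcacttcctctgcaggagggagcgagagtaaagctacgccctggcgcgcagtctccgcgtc
CPE, chr4:165378758-165379007, plus strand: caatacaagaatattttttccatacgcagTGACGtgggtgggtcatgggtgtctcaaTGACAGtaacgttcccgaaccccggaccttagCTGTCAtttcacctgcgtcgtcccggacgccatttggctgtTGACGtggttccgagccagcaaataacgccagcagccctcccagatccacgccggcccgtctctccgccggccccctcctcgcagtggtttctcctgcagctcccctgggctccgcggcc
The VGF window holds the full CRE, 79 to 72 bases before the start, a site that is known to carry the cAMP response of this gene. The same letters occurred in 1.65% of 35116 RefSeq promoter windows of this length, and in 2.33% of the 15552 windows of genes listed in these data. The SCG3 window holds 1 MEIS core on the other strand, 246 to 241 bases before the start. The CPE window holds 2 partial CRE sites, 221 to 217 and 120 to 116 bases before the start, and 2 MEIS cores, 193 to 188 and, on the other strand, 161 to 156 bases before it. Partial CRE sites, which full sites contain, were present in 21.2% of all windows, MEIS cores in 13.0% and the HOXB13 site in 0.863%. Among the windows of listed genes these shares were 27.3%, 11.2% and 0.637%. The PCSK1N window holds none of the 4, and CHGB and SCG2 were not searched. A match is a description of letters and not a bound site.

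CHGB, SCG3 and VGF were far lower in all 3 other groups than in Control, whereas the group means of SCG2, PCSK1N and CPE stayed between 61.4% and 124.4% of it. CHGB encodes chromogranin B, a granule core protein (ENSG00000089199, GRCh38 chromosome 20, 5911510 to 5925353, plus strand, 5 exons). Its level was 6.29, 6.93 and 7.58 CPM in the Control libraries and 0.397, 0.364 and 0.268 CPM in those with LV-MEIS1. Values were 1.29, 1.03 and 1.23 CPM in HOXB13ko and 0.694, 1.37 and 1.31 CPM in HOXB13ko-LV-MEIS1. The Control libraries were the highest and the LV-MEIS1 libraries the lowest, with no overlap between either group and any other, while the groups labelled HOXB13ko overlapped each other. The lowest value, in LV-MEIS1 replicate 3, lay above the 0.111 CPM that 3 reads give there.

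SCG3 encodes secretogranin III, which binds granins to the cholesterol-rich granule membrane (ENSG00000104112, chromosome 15, 51681492 to 51721026, plus strand, 12 exons). Control libraries had 10.6, 9.64 and 9.18 CPM, and LV-MEIS1 libraries had 0.492, 0.460 and 0.452 CPM. HOXB13ko libraries had 2.21, 1.63 and 1.96 CPM, and HOXB13ko-LV-MEIS1 libraries had 1.52, 2.27 and 1.74 CPM. The order of the groups was that of CHGB. The 2 opposite-strand noncoding genes that overlap SCG3 share no exon base with its canonical transcript.

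VGF encodes a granin-family precursor of bioactive peptides, first found as a gene induced by nerve growth factor (ENSG00000128564, chromosome 7, 101162509 to 101165569, minus strand, 2 exons). It was 90.8, 107.3 and 94.9 CPM in Control and 13.2, 9.38 and 12.6 CPM in LV-MEIS1. It was 22.3, 22.3 and 18.9 CPM in HOXB13ko and 19.1, 24.7 and 22.9 CPM in HOXB13ko-LV-MEIS1. Again Control stood above and LV-MEIS1 below all other libraries.

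SCG2 encodes secretogranin II, the precursor of secretoneurin (ENSG00000171951, chromosome 2, 223596940 to 223602361, minus strand, 2 exons). Its values were 5.47, 5.02 and 5.09 CPM in Control and 5.42, 6.0 and 5.85 CPM in LV-MEIS1. They were 1.99, 3.45 and 5.38 CPM in HOXB13ko and 3.11, 3.81 and 2.63 CPM in HOXB13ko-LV-MEIS1. The HOXB13ko libraries spread widely, with a coefficient of variation of 47.2% against 4.65% in Control, and reached from below every other library into the Control range.

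PCSK1N encodes proSAAS, an inhibitor of the convertase PCSK1 (ENSG00000102109, chromosome X, 48831096 to 48835610, minus strand, 3 exons). It was 25.3, 35.2 and 31.5 CPM in Control and 32.7, 27.7 and 35.8 CPM in LV-MEIS1, ranges that overlap. It was 23.9, 20.1 and 16.9 CPM in HOXB13ko and 18.8, 21.5 and 23.1 CPM in HOXB13ko-LV-MEIS1, below all Control and LV-MEIS1 libraries. CPE encodes carboxypeptidase E (ENSG00000109472, chromosome 4, 165361194 to 165498547, plus strand, 9 exons). It was 82.1, 77.5 and 76.3 CPM in Control, 99.2, 96.6 and 97.8 CPM in LV-MEIS1, 78.0, 75.1 and 76.9 CPM in HOXB13ko and 87.8, 94.3 and 88.8 CPM in HOXB13ko-LV-MEIS1. Both groups with exogenous MEIS1 lay above both groups without it. In these bulk samples, fewer cells that express a gene and less RNA per cell cannot be told apart.

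**Figure D1:**
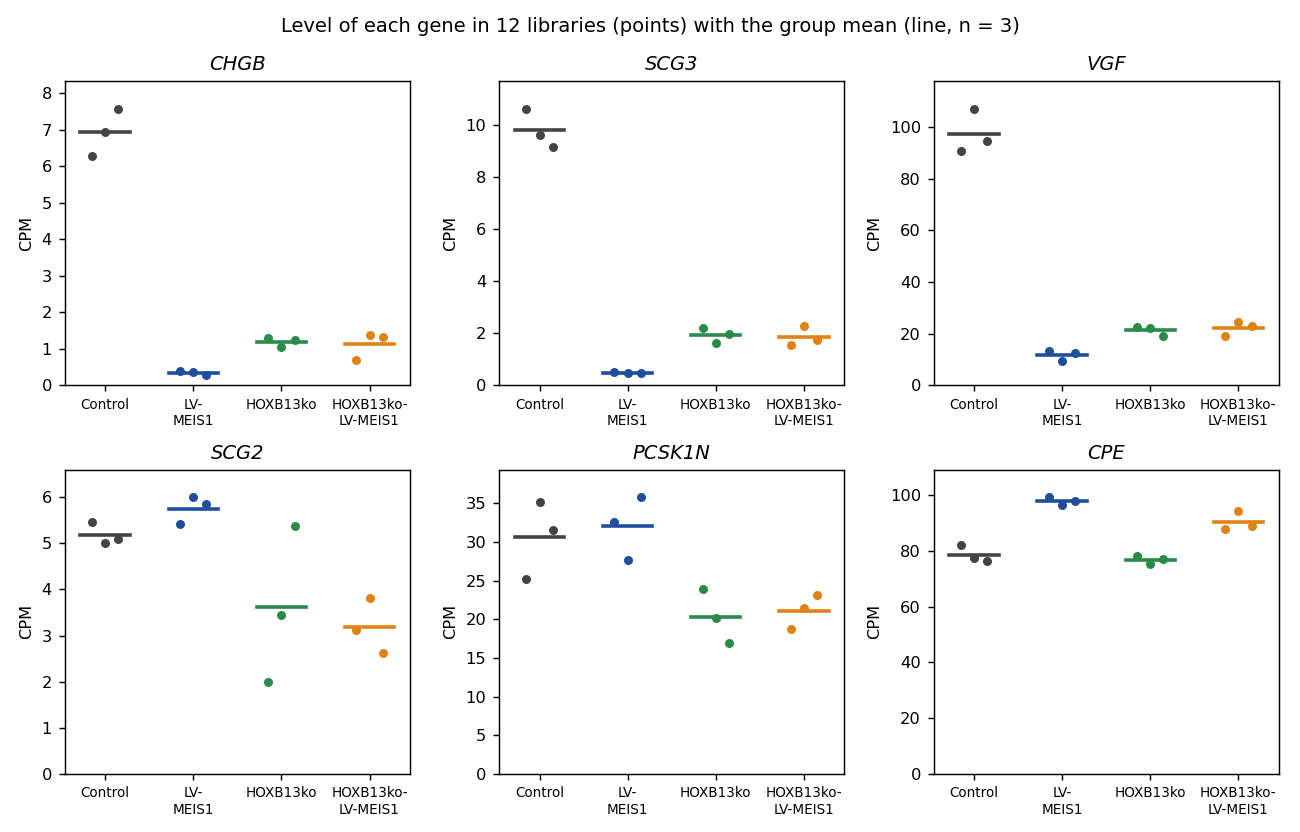
Level of each of the 6 genes in CPM (vertical axes, each from 0) in the 12 libraries (points), by group, with the group mean as a line (n = 3). CHGB, SCG3 and VGF are high in Control alone and lowest in LV-MEIS1, while CPE stays between 75.1 and 99.2 CPM throughout.

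LV-MEIS1 against Control compares cells with exogenous MEIS1 with Control, neither targeted at HOXB13. Exogenous MEIS1 and any difference in vector or Cas9 between these lines cannot be told apart. CHGB, SCG3 and VGF fell, and none of the 6 members rose past the test, which was limma's treat against a change of 1.5-fold on log2(CPM + 0.5). The called members are 3 of 6, beside 3.99% of all genes (2.24% lower and 1.75% higher). CHGB went from 6.93 ± 0.64 to 0.343 ± 0.067 CPM (SD, n = 3), 4.95% of the Control mean. SCG3 went from 9.82 ± 0.75 to 0.468 ± 0.021 CPM, 4.77% of the Control mean. VGF went from 97.6 ± 8.60 to 11.7 ± 2.04 CPM, 11.98% of the Control mean. Their log2 fold changes were -3.14 ± 0.18 (SE, limma treat adjusted p = 8.59e-08) for CHGB, -3.41 ± 0.15 (adjusted p = 3.41e-09) for SCG3 and -3.02 ± 0.12 (adjusted p = 1.89e-09) for VGF. Among 13951 genes ordered from the lowest log2 fold change, SCG3 ranked 13, CHGB 15 and VGF 18. The pseudocount of 0.5 is above the LV-MEIS1 level of CHGB and SCG3, so their log2 fold changes understate the change in CPM.

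The other 3 members did not pass. CPE went from 78.7 ± 3.04 to 97.9 ± 1.28 CPM, which is 0.31 ± 0.05 on the log2 scale (SE), and limma's eBayes, the test against no change, called it higher (adjusted p = 0.000121), as it did 23.2% of all genes, with 21.3% lower. SCG2 had a log2 fold change of 0.14 with a 95% interval of -0.35 to 0.62, and PCSK1N one of 0.07 with an interval of -0.23 to 0.36. The groups of CHGB, SCG3, VGF and CPE did not overlap (p = 0.10 for each by an exact permutation test, two-sided, which cannot go lower with 3 libraries a group), which was so for 25.1% of all genes in the lower direction and 26.3% in the higher. The summed luminal marker level was also lower in LV-MEIS1 and its part in these results was not tested.

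HOXB13ko against Control compares the pool labelled as knockout, without LV-MEIS1, with Control; targeting of HOXB13 and the cloning and recombination of the pool cannot be told apart. The same 3 granins fell, by 4.26- to 4.52-fold on the log2(CPM + 0.5) scale. The called members are again 3 of 6, beside 1.41% of all genes (0.76% lower and 0.652% higher). CHGB averaged 1.18 ± 0.13 CPM, 17.1% of Control, and its log2 change was -2.14 ± 0.18 (SE; adjusted p = 7.25e-05, limma treat). SCG3 averaged 1.93 ± 0.29 CPM, 19.7% of Control, with a log2 fold change of -2.09 ± 0.15 (adjusted p = 1.47e-05). VGF averaged 21.2 ± 1.96 CPM, 21.7% of Control, with a log2 fold change of -2.18 ± 0.12 (adjusted p = 1.01e-06). These libraries share their Control with the LV-MEIS1 comparison, so the pair of results is not independent. VGF ranked 14, CHGB 18 and SCG3 19 from the lowest of 13951 genes. The target mRNA was higher, not lower, under this label.

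PCSK1N averaged 20.3 ± 3.48 CPM against 30.6 ± 5.00 CPM in Control. Its log2 fold change of -0.58 ± 0.14 missed treat (adjusted p = 1) and passed limma's eBayes (adjusted p = 0.00568), as 16.4% of all genes did in the lower direction and 16.5% in the higher. SCG2 averaged 3.61 ± 1.70 against 5.19 ± 0.24 CPM, or -0.56 ± 0.23 on the log2 scale (limma eBayes adjusted p = 0.0717), and the groups overlapped. Without HOXB13ko replicate 3 its log2 fold change was -0.86, and the call did not change. CPE differed by -0.04 on the log2 scale, with a 95% interval of -0.14 to 0.07. CHGB, SCG3, VGF and PCSK1N did not overlap between the groups, against 23.1% of all genes in the lower direction and 21.8% in the higher.

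HOXB13ko-LV-MEIS1 against HOXB13ko compares the pool labelled as knockout with and without LV-MEIS1, so MEIS1 and the infection itself cannot be told apart. By limma treat 0 of 6 members were called, beside 0.00717% of all genes. That is 1 gene of 13951, MEIS1 itself, with a log2 fold change of 2.90 (limma treat adjusted p = 9.58e-11). The members thus shared the lack of a call with nearly all genes. At an unadjusted p under 0.05 treat gave 9 genes (0.0645%). By limma's eBayes 7 genes (0.0502%) were called, with 0 members among these 7. The 95% intervals of the log2 fold change were -0.47 to 0.32 for CHGB, -0.38 to 0.27 for SCG3, -0.20 to 0.32 for VGF, -0.57 to 0.40 for SCG2 and -0.23 to 0.36 for PCSK1N. For VGF the interval excludes a fall of the size seen in LV-MEIS1 against Control. CHGB and SCG3 could not have shown such a fall: from their HOXB13ko level to 0 CPM the log2(CPM + 0.5) scale leaves changes of -1.75 and -2.27, which their intervals also exclude. CPE was 90.3 ± 3.53 against 76.7 ± 1.47 CPM, which on the log2 scale is 0.23 with an interval of 0.13 to 0.34 (limma eBayes adjusted p = 0.0993). Its groups did not overlap, as was so for 10.6% of all genes in the higher direction. MEIS1 itself was 29.7 ± 0.36 CPM in HOXB13ko-LV-MEIS1 and 47.4 ± 1.96 CPM in LV-MEIS1. The libraries labelled HOXB13ko-LV-MEIS1 thus had less MEIS1 mRNA, and the part of this difference in the result was not tested. Uninfected cells, which puromycin could not remove from that pool, were not measured either.

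The direct test of whether the change with LV-MEIS1 differed between backgrounds subtracts the change in the HOXB13ko pair from that in the Control pair. Any difference in vector or Cas9 within a pair, or in puromycin selection between pairs, cannot be told apart from MEIS1 here. CHGB, SCG3 and VGF passed this test, 3 of 6 members beside 2.93% of all genes (1.62% lower and 1.31% higher). The difference of log2 fold changes was -3.06 ± 0.26 (SE, limma treat adjusted p = 1.2e-05) for CHGB, -3.35 ± 0.22 (adjusted p = 4.83e-07) for SCG3 and -3.08 ± 0.17 (adjusted p = 1.77e-07) for VGF. For SCG2 it was 0.22 ± 0.32, for CPE 0.08 ± 0.07 and for PCSK1N 0.004 ± 0.19, and these 3 did not pass. The starting levels were unequal, since in the HOXB13ko pool without LV-MEIS1 the 3 granins were already at 17.1% to 21.7% of Control. Even a fall to 0 CPM in the HOXB13ko pair would have left differences of -1.39 for CHGB and -1.14 for SCG3, so part of their difference is set by these low levels; VGF has no such limit. The 6 differences form 2 clusters of 3, so their median of -1.53, beside 0.02 over all genes, describes no single member.

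**Figure D2:**
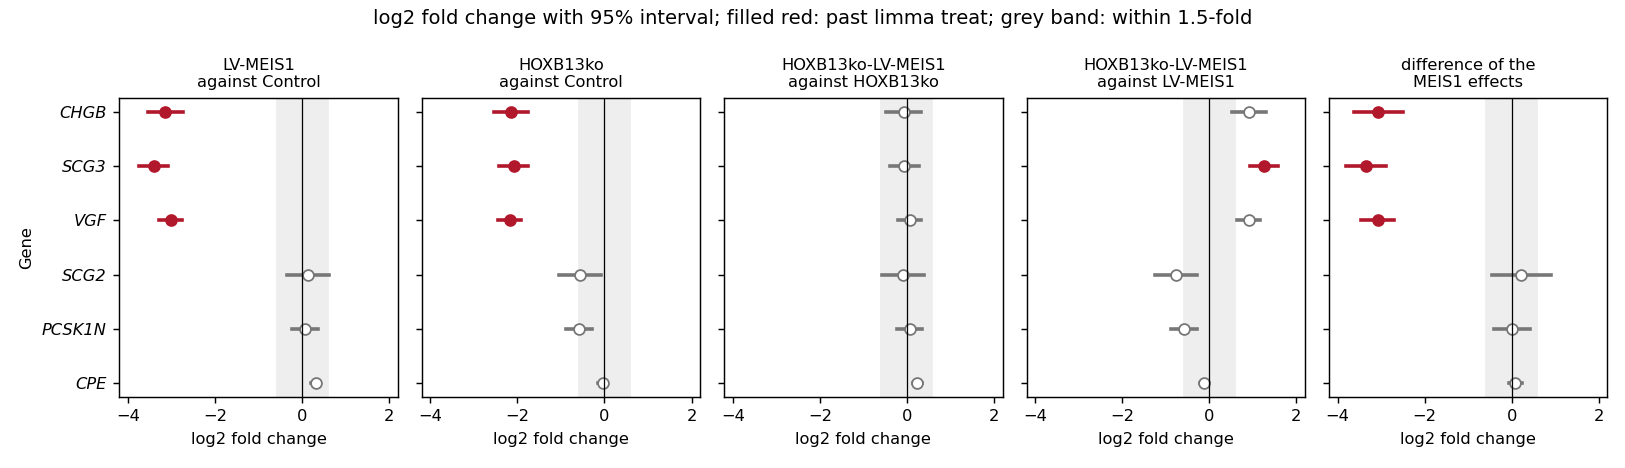
log2 fold change (horizontal axes, on log2(CPM + 0.5)) of each gene in the 4 pairwise comparisons and in the difference of the MEIS1 effects, with 95% intervals. Filled red points passed limma treat and the grey band marks changes within 1.5-fold; CHGB, SCG3 and VGF stand at -3.41 to -2.09 in both comparisons with Control and near 0 within the HOXB13ko pair.

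HOXB13ko-LV-MEIS1 against LV-MEIS1 compares the pair of lines with exogenous MEIS1. SCG3 rose from 0.468 to 1.84 ± 0.39 CPM, the only 1 of 6 members called, beside 6.71% of all genes (3.29% higher and 3.42% lower). Its log2 fold change was 1.26 ± 0.15 (SE, limma treat adjusted p = 0.00496). With a pseudocount of 1 it was 0.95 and the call was lost (adjusted p = 0.0924). CHGB had a log2 fold change of 0.92 ± 0.18 (limma treat adjusted p = 0.462, eBayes adjusted p = 0.00078), which with a pseudocount of 0.1 became 1.43 and was called (treat adjusted p = 0.0343). VGF had 0.90 ± 0.12 (treat adjusted p = 0.138, eBayes adjusted p = 2.86e-05). Without HOXB13ko-LV-MEIS1 replicate 1 VGF had 1.01 and was called (limma treat adjusted p = 0.0451). SCG2 and PCSK1N had log2 fold changes of -0.78 ± 0.23 and -0.59 ± 0.14, which passed limma's eBayes (adjusted p = 0.0105 and 0.00265) and not treat (adjusted p = 1 for both). By eBayes 5 of 6 members passed, 3 higher and 2 lower, beside 50.1% of all genes (24% higher and 26.1% lower). All 6 members were without overlap between these groups, 3 higher and 3 lower, against 28.2% and 30.1% of all genes.

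Per length of the canonical transcript (CPM per kb, GENCODE release 44), the order of the 6 genes changed between groups. In Control the order of mean levels was VGF 38.3 ± 3.37, CPE 30.5 ± 1.18, PCSK1N 29.9 ± 4.87, SCG3 3.11 ± 0.24, CHGB 2.82 ± 0.26 and SCG2 2.13 ± 0.10 CPM per kb. CPE and PCSK1N were within their spread of each other, as were SCG3 and CHGB. In LV-MEIS1 the order was CPE 37.9 ± 0.50, PCSK1N 31.2 ± 4.0, VGF 4.59 ± 0.80, SCG2 2.37 ± 0.12, SCG3 0.148 ± 0.007 and CHGB 0.139 ± 0.027 CPM per kb. The groups labelled HOXB13ko had that order too, with VGF at 8.31 ± 0.77 and 8.70 ± 1.12 CPM per kb.

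VGF thus went from the first of the 6 genes to the third. It made up 35.8% ± 0.84 of the summed level per kb in Control, 5.98% ± 0.73 in LV-MEIS1, 13.8% ± 0.82 in HOXB13ko and 13.0% ± 0.87 in HOXB13ko-LV-MEIS1. CPE made up 28.7% ± 2.79 in Control and 49.7% ± 2.87, 49.3% ± 2.66 and 52.6% ± 2.25 in the other groups in the same order. The sum of CHGB, SCG3 and VGF was 44.2 ± 3.33, 4.87 ± 0.80, 9.40 ± 0.76 and 9.74 ± 1.38 CPM per kb. The sum over all 6 was 107.0 ± 7.11, 76.4 ± 4.96, 60.4 ± 3.67 and 66.6 ± 4.27 CPM per kb, and VGF had the largest decrease of the 6 in each group against Control.

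**Figure D3:**
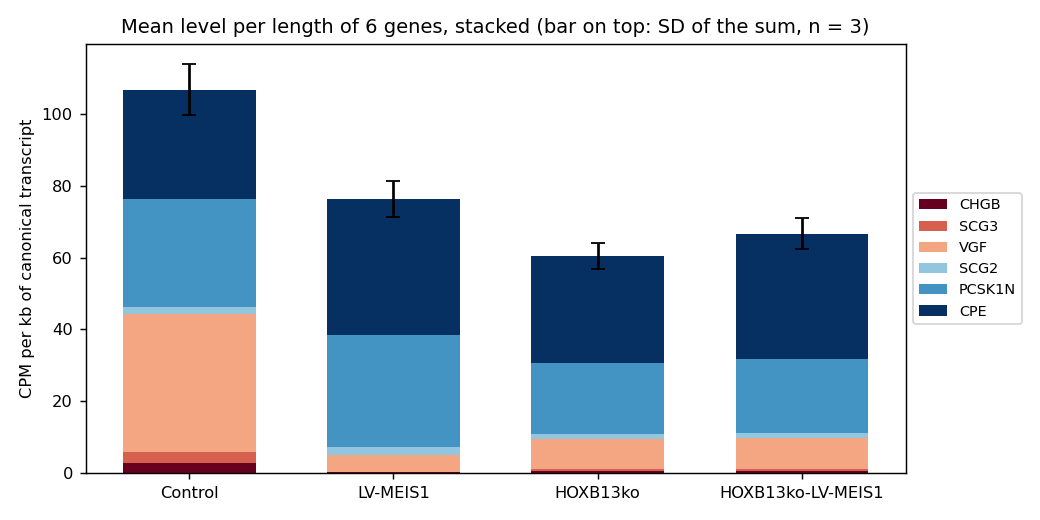
Mean level of the 6 genes in CPM per kb of canonical transcript (vertical axis), stacked by group, with the SD of the sum (n = 3). The VGF level shrinks from 38.3 CPM per kb in Control to 4.59 in LV-MEIS1, while CPE and PCSK1N together take most of every bar.

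CHGB and SCG3 kept nearly the same ratio throughout. The ratio of their CPM, SCG3 over CHGB, was 1.21 to 1.69 in Control, 1.24 to 1.69 in LV-MEIS1, 1.57 to 1.72 in HOXB13ko and 1.32 to 2.19 in HOXB13ko-LV-MEIS1, and the 4 ranges overlapped. The ratio of VGF to SCG3 CPM was 8.53 to 11.1 in Control, 9.67 to 13.7 in HOXB13ko and 10.9 to 13.2 in HOXB13ko-LV-MEIS1, but 20.4 to 27.8 in LV-MEIS1. In LV-MEIS1, VGF therefore kept a larger share of its Control level than SCG3 did.

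Over the 12 libraries the log2 values of CHGB and SCG3 had a Pearson r of 0.988, CHGB and VGF 0.987, and SCG3 and VGF 0.982. With these 3 genes SCG2 had r of 0.02 to 0.09, PCSK1N 0.08 to 0.23 and CPE -0.68 to -0.62. The libraries share 4 lines, so r follows mostly the 4 group means and is a description. Among 13901 genes whose mean reached 1 CPM, those most like CHGB were SCG3, PHF21B (0.9873) and VGF. Those most like SCG3 were SEZ6 (0.9901), CHGB and SYP (0.9861), and those most like VGF were PHF21B (0.9901), KCNT1 (0.9874) and CHGB. PHF21B was 10.0, 0.161, 1.07 and 1.11 CPM on average in the groups in the order used above, and KCNT1, a sodium-activated potassium channel, was 8.96, 1.46, 2.96 and 2.71 CPM. SEZ6 overlaps a gene on the opposite strand and strand was not used in counting, so its value is uncertain.

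The 6 genes lie on 6 chromosomes. The 10 nearest listed genes of each, 5 on either side, moved little on the median. For LV-MEIS1 against Control the neighbours' median log2 fold change was -0.07 at CHGB, 0.14 at SCG3 and -0.23 at VGF, and for HOXB13ko against Control it was 0.18, 0.13 and -0.31. The neighbours of SCG3 ranged from -0.22 to 0.32 in LV-MEIS1, against -3.41 for SCG3 itself. At VGF, 8 of 10 neighbours were below 0 in LV-MEIS1 and 10 of 10 in HOXB13ko, the lowest at -1.37 and -0.44, still short of VGF. CHGB had neighbours from -1.64 to 0.55 in LV-MEIS1. The medians at the members that were not called were -0.19 to 0.17 in LV-MEIS1 and -0.04 to 0.15 in HOXB13ko.

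**Figure D4:**
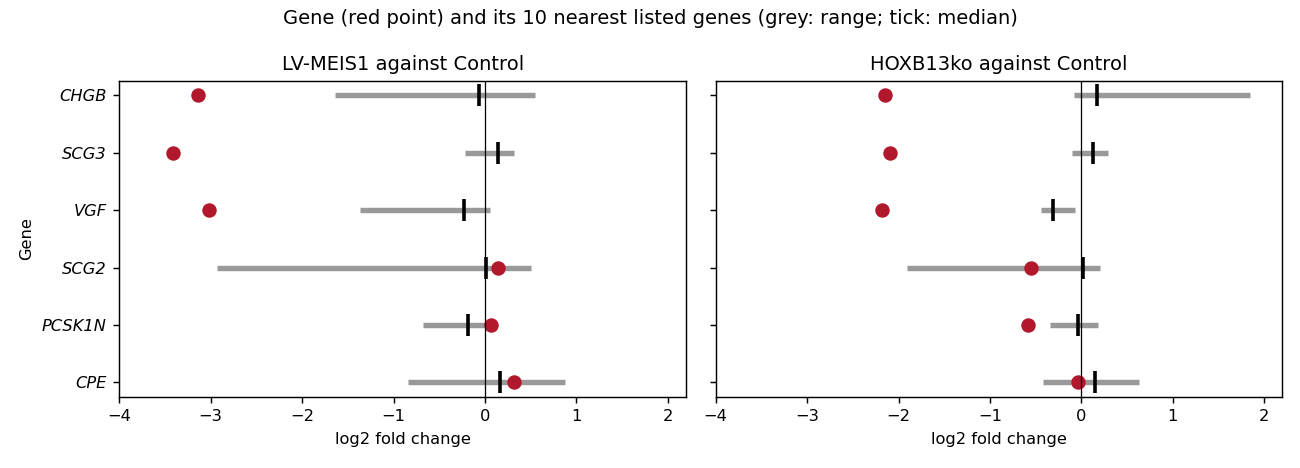
log2 fold change (horizontal axes) of each member (red point) beside the range (grey bar) and median (tick) of its 10 nearest listed genes, for LV-MEIS1 and for HOXB13ko against Control. CHGB, SCG3 and VGF lie to the left of all their neighbours in both comparisons.

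Other genes of the granule pathway, and neuroendocrine markers and regulators, were taken from 5 lists of 93 genes. Of these, together called pathway genes, 54 are listed. In LV-MEIS1 against Control 4 of 54 were called, 1 higher and 3 lower, beside 3.99% of all genes, and in HOXB13ko against Control 2 of 54, both lower, beside 1.41%. Their median log2 fold changes were 0.02 and -0.02, beside 0.007 and -0.002 over all genes. Among 13 other convertases and peptide-finishing enzymes, 11 granule membrane, docking and transport proteins and 16 granule biogenesis factors, 0 passed limma treat in either comparison. At the test against no change (eBayes), 8, 7 and 5 of these lists' genes passed in LV-MEIS1 and 7, 6 and 7 in HOXB13ko, beside 44.5% and 32.9% of all genes. They went in both directions, except that the 5 biogenesis factors in LV-MEIS1 were all higher. Log2 fold changes of the granule membrane, docking and transport proteins ran from -1.35 (PTPRN2) to 0.84 (RAB3B) in LV-MEIS1. In HOXB13ko they ran from -0.89 (PTPRN2) to 0.72 (SYTL2).

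Of 6 listed neuroendocrine markers and regulators, SYP and SRRM4 fell in both comparisons. The other 4 did not pass treat: the log2 fold changes in LV-MEIS1 and in HOXB13ko were -1.12 and -0.53 for DLL3, -0.20 and -0.16 for ENO2 and 0.92 and 0.56 for POU3F2, and REST is described below. By eBayes 6 of these 6 genes passed in LV-MEIS1, 4 lower and 2 higher, beside 44.5% of all genes. In HOXB13ko 4 passed, 3 lower and 1 higher, beside 32.9%. SYP encodes synaptophysin, a membrane protein of small secretory vesicles. It was 14.4 to 17.0 CPM in Control and 1.24 to 2.14 CPM in LV-MEIS1, 3.68 to 4.25 CPM in HOXB13ko and 3.51 to 4.35 CPM in HOXB13ko-LV-MEIS1. Against Control it changed by -2.91 ± 0.15 on the log2 scale in LV-MEIS1 (SE, limma treat adjusted p = 2.38e-08) and -1.91 ± 0.15 in HOXB13ko (adjusted p = 4.48e-05). SRRM4, a splicing factor of neural microexons, was 26.8 to 29.3, 1.45 to 2.84, 8.71 to 11.4 and 7.84 to 9.43 CPM in the same groups. On the log2 scale it changed by -3.48 ± 0.16 in LV-MEIS1 (limma treat adjusted p = 3.73e-09), -1.44 ± 0.16 in HOXB13ko (adjusted p = 0.00521) and 1.85 ± 0.16 between the lines with exogenous MEIS1 (adjusted p = 2.55e-05). SYP and SRRM4 also passed the difference of the MEIS1 effects, at -2.93 (limma treat adjusted p = 2.27e-06) and -3.28 (adjusted p = 1e-06). Both genes had the group order of the 3 granins.

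The peptide precursors went in both directions, with 8 of 32 listed. By eBayes 4 passed in LV-MEIS1, 1 higher and 3 lower, beside 44.5% of all genes. In HOXB13ko 4 passed, 3 higher and 1 lower, beside 32.9%. GAL, the galanin precursor, fell with LV-MEIS1, from 62.8 ± 7.02 to 31.0 ± 3.95 CPM (log2 fold change -1.01, limma treat adjusted p = 0.015) and was 50.3 ± 6.37 CPM in HOXB13ko. Its fall did not pass treat without Control replicate 2 or without LV-MEIS1 replicate 2. Its difference of the MEIS1 effects was -1.123 (limma treat adjusted p = 0.0422), a call lost under 10 of 19 alternatives with treat. EDN1, the endothelin-1 precursor, rose from 3.19 ± 0.36 to 7.72 ± 0.65 CPM in LV-MEIS1 (log2 fold change 1.16, limma treat adjusted p = 0.00675). REST, a repressor of neuronal genes outside neurons that has several granin genes among its known targets, was 101.8 to 118.7 CPM in Control and 137.2 to 155.7 CPM in LV-MEIS1. It was 120.3 to 127.4 CPM in HOXB13ko and 112.3 to 120.3 CPM in HOXB13ko-LV-MEIS1. The log2 fold change of REST in LV-MEIS1 was 0.37 ± 0.06, which missed limma treat (adjusted p = 1) and passed eBayes (adjusted p = 0.000309). In HOXB13ko it was 0.16 ± 0.06 (limma eBayes adjusted p = 0.069). The part of REST in the granin levels was not tested.

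**Figure D5:**
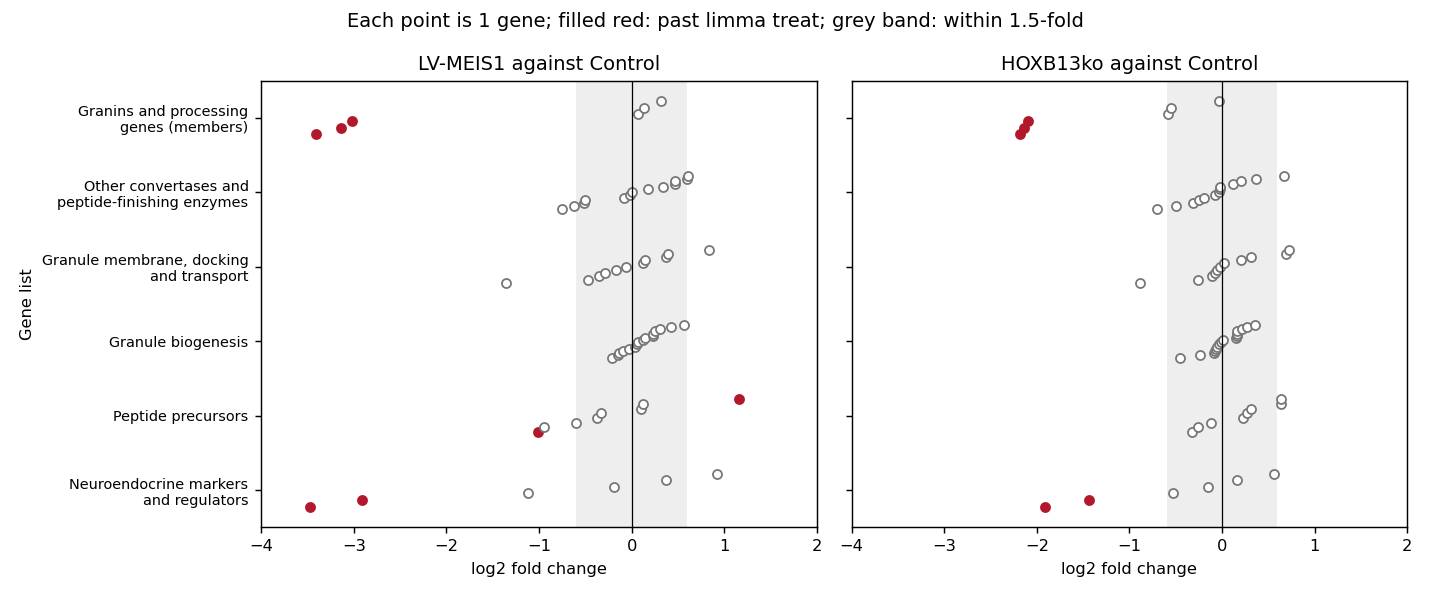
log2 fold change (horizontal axes) of each listed gene of the members and of 5 gene lists, for LV-MEIS1 and for HOXB13ko against Control. Filled red points passed limma treat and the grey band marks changes within 1.5-fold; outside the 3 granins, only SYP and SRRM4 are filled in the HOXB13ko panel.

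Within the HOXB13ko pair 0 of 54 pathway genes were called by limma treat or eBayes, beside 0.00717% and 0.0502% of all genes. Between the pair of lines with exogenous MEIS1 7 of 54 were called, SRRM4 among them, beside 6.71% of all genes. Higher in HOXB13ko-LV-MEIS1 were CALCB, a calcitonin gene-related peptide precursor (4.93 ± 0.90 against 1.26 ± 0.08 CPM, log2 fold change 1.62, limma treat adjusted p = 5.2e-05), the secreted glycoprotein STC2 (31.8 against 15.9 CPM, log2 fold change 0.98, adjusted p = 0.00121) and the granule-docking protein SYTL2 (263.2 against 147.6 CPM, log2 fold change 0.84, adjusted p = 0.0493). CALCB has a close paralog, CALCA, with which reads may be shared. Lower were the convertase PCSK4 (3.67 against 10.5 CPM, log2 fold change -1.40, limma treat adjusted p = 0.00154), the secretory GTPase RAB3B (17.3 against 35.7 CPM, log2 fold change -1.02, adjusted p = 0.00262) and BAIAP3, a factor of granule trafficking (17.5 against 41.7 CPM, log2 fold change -1.23, adjusted p = 0.000172). RAB3B also passed the difference of the MEIS1 effects, at 1.04 (limma treat adjusted p = 0.0472), the only 1 of 54 in the higher direction beside 3 lower, with 2.93% of all genes called. That call was lost under 14 of 19 alternatives with treat. The SYTL2 call between the lines with exogenous MEIS1 was lost under 11 of 20.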

How the data were processed

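RNA was enriched for poly-A and sequenced as single-end reads of 50 bp on a stranded kit. The deposited values are CPM: the authors trimmed reads with Trimmomatic 0.38, assigned them to Ensembl GRCh38.p12 transcripts with kallisto 0.43.1 without using strand, collapsed the estimated counts to gene level (tximport), dropped genes below a minimum count and applied library normalization in edgeR 3.22.2. The submitters' processing notes also name CASAVA 1.8. Repeated rows (42) were dropped from 13993, leaving 13951 genes per library. Depth was estimated from CPM steps; 40.7% to 55.1% of values under 1 CPM lay within 0.05 of whole multiples, so whole reads could not be recovered and count models were not used.

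Every gene was fitted in limma 3.58.1 (R 4.3.3) on log2(CPM + 0.5) with 4 group means over 12 libraries. Calls used treat against 1.5-fold (the threshold of the authors' test) with Benjamini-Hochberg adjusted p under 0.05 over all genes; eBayes tested against no change. The fit was tested on simulated data, with changes added only to genes of a higher mean CPM than CHGB, SCG3 and SCG2 have. It was therefore not tested at the levels of these members. Alternatives covered 2 other pseudocounts (0.1, 1), only genes averaging at least 1 CPM, 3 scalings, a replicate block, eBayes, only the libraries compared, and each library left out in turn.

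Named were all listed members, pathway genes called in any comparison (up to 6 a list), the 3 genes most correlated with each called member, and HOXB13, MEIS1 and REST. The members and lists were chosen with earlier results of these data known; the per-kb, ratio, neighbour and promoter descriptions and the motifs were chosen likewise. A further luminal marker is not reported here. Positions are from GENCODE release 44, where 93.9% of listed symbols matched once. RefSeq promoter entries were matched by symbol for 4 of 6 members. Plots used matplotlib 3.10.9 (Python 3.11.15).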

Additional observations from a re-analysis of the deposited data

Results flagged for a closer look

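The change of CHGB, SCG3 and VGF with LV-MEIS1 differed between cells not targeted at HOXB13 and the pool labelled HOXB13ko, by the direct test of the difference. It was -3.06 for CHGB, -3.35 for SCG3 and -3.08 for VGF on the log2 scale (Control pair minus HOXB13ko pair; limma treat adjusted p = 1.2e-05, 4.83e-07 and 1.77e-07). Treat called 2.93% of all genes in this difference. In each case no LV-MEIS1 library reached the lowest Control library, as was so for 25.1% of all genes. The libraries of the HOXB13ko pair overlapped for these 3 genes. In that pair 10.6% of all genes were without overlap in each direction, and treat called only MEIS1. A fall to 0 CPM in that pair would still have left -1.39 for CHGB and -1.14 for SCG3, so part of their difference is set by their low level there. HOXB13 mRNA was higher in the libraries labelled HOXB13ko, and MEIS1 was lower in HOXB13ko-LV-MEIS1 than in LV-MEIS1. Their part in this difference was not tested, nor was that of vector, Cas9 or puromycin selection.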

How the results depend on the processing

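CHGB, SCG3 and VGF kept their direction and their call in both comparisons with Control (LV-MEIS1 and HOXB13ko) under all 21 alternatives, and in the difference of the MEIS1 effects under all 20 that could be run. In LV-MEIS1 against Control the log2 fold change ranged from -3.997 to -2.56 for CHGB, -4.12 to -2.88 for SCG3 and -3.11 to -2.87 for VGF. The lower and upper ends for CHGB and SCG3 came from pseudocounts of 0.1 and 1. Other scalings moved the median of all genes by at most 0.04.

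The count of members called between HOXB13ko-LV-MEIS1 and LV-MEIS1 was 1; it was 2 with a pseudocount of 0.1 and with quantile normalization, 0 with a pseudocount of 1, 5 with eBayes, and 1 to 2 with a library left out. With eBayes the pathway genes called were 30 in LV-MEIS1 against Control, 28 in HOXB13ko against Control, 35 between the MEIS1 lines and 27 in the difference, against 4, 2, 7 and 4 with treat. In the difference the pathway count was 2 to 4 with a library left out; it was 2 without Control replicate 2, HOXB13ko replicate 2 or 3, or any HOXB13ko-LV-MEIS1 replicate, and 3 under the 3 other scalings and a pseudocount of 1. The calls lost there were GAL, under 10 of 19 alternatives with treat, and RAB3B, under 14, while SYP and SRRM4 kept theirs. In LV-MEIS1 against Control GAL lost its call without Control replicate 2 and without LV-MEIS1 replicate 2. The replicate block gave 2 pathway genes in the difference of the MEIS1 effects and changed no count of members (3, 3, 0, 1 and 3). The replicate numbers were not taken to pair samples: deviations of same-numbered libraries correlated at -0.209 to 0.146, above 0.1 in 2 of 18 pairs.

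Signs turned only for values near 0 that passed no test. With median of ratios PCSK1N in the difference was -0.004; with quantile normalization it was -0.033, and in the HOXB13ko pair CHGB was 0.058, SCG2 0.010 and SCG3 0.057. With a library left out, the HOXB13ko pair ranged from -0.191 to 0.131 for CHGB, -0.400 to 0.220 for SCG2, -0.186 to 0.042 for SCG3, -0.017 to 0.164 for VGF and -0.058 to 0.185 for PCSK1N. PCSK1N ranged from -0.062 to 0.172 in LV-MEIS1 against Control and from -0.126 to 0.126 in the difference, and SCG2 from -0.083 to 0.537 in the difference. The cause was not tested.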
